A study of Mus musculus with 13 samples.

Results

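The 35 genes described here are immediate-early and stress genes: the subunits of the AP-1 transcription factor with Atf3, the Egr zinc finger factors, the Nr4a orphan nuclear receptors, Klf2, Klf4, Klf6 and Myc, the Ier genes, the MAP kinase phosphatases Dusp1, Dusp2, Dusp5 and Dusp6, the feedback genes Zfp36 and Nfkbia, growth arrest genes, and the heat shock genes Hspa1a, Hspa8 and Dnajb1. They were chosen by symbol from a list, and where a gene had several probe sets the brightest on average was taken. All 35 were among the 19537 genes that had a probe set naming a single gene. Expression was measured on 13 Affymetrix arrays of total RNA from liver cells of naive C57BL/6 mice aged 6 to 10 weeks, with no treatment. Hepatocytes, Kupffer cells (the resident macrophages of the liver) and liver sinusoidal endothelial cells (LSEC) were freshly sorted and had 3 arrays each. Hepatic stellate cells (HSC, the vitamin A-storing pericytes that become fibrogenic in culture) had been kept in DMEM with 10% FBS before lysis, with 2 arrays after 1 day and a single array each after 7 and after 14 days. There was no array of freshly sorted HSC. How each population was isolated, and how long that took, is not stated in the labels, so cell type and handling cannot be told apart in any comparison below.

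Immediate-early genes are switched on within minutes of a growth factor, cytokine or injury signal without new protein synthesis, mainly through MAP kinases acting on the serum response factor, its ternary complex partners and CREB. Their products are mostly transcription factors, together with phosphatases, RNA-binding proteins and inhibitors that shut the same signals off. Enzymatic digestion and sorting of a tissue are known to induce many of them, and Fos, Jun, Egr1, Atf3 and Hspa1a are commonly read as marks of dissociation.

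The labels were checked against marker genes. All 10 markers of hepatocytes, Kupffer cells and LSEC were above the pooled median intensity (224.5) on each array of their own population, as were all 10 stellate markers on day 1 and day 7 and 8 of 10 on day 14. The day 1 HSC arrays also carried markers of other cells. The summed intensity of the 10 hepatocyte markers was 16423 and 10010 there, with 7 and 8 markers above the median, against 125976 to 132141 in hepatocytes, 2437 to 5852 in Kupffer cells, 1342 to 1510 in LSEC and 1245 to 1276 in the later HSC. Albumin alone gave 8855 and 6285 on the day 1 HSC arrays. The 10 LSEC markers summed to 12596 and 11443 on day 1, against 52148 to 71175 in LSEC, 12831 to 15093 in Kupffer cells, 2823 to 3889 in hepatocytes and 2206 to 2395 in the later HSC. Cdh5 alone gave 6552 and 5427 of this sum on day 1 and 9141 to 10040 in Kupffer cells. Above the median were all 10 LSEC markers on each day 1 HSC array, 8 on each Kupffer array and 7 or 8 on each hepatocyte array. The 10 Kupffer markers summed to 2906 and 3993 on day 1, with 5 and 7 above the median, and to 2459 and 2995 on days 7 and 14, against 78004 to 81807 in Kupffer cells and 1430 to 2070 in hepatocytes and LSEC. The 5 mesothelial markers summed to 878 and 880 on day 1, 1323 on day 7 and 2604 on day 14 (1, 1, 3 and 4 above the median), against 658 to 1215 in the freshly sorted cells. The part of these cells in the HSC values was not tested. In such bulk RNA, fewer cells of a type and less RNA per cell cannot be told apart.

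Promoter sequence is shown for 5 members that the results turn on. Fos, Fosb and Nr4a1 were far higher in Kupffer cells than in hepatocytes, LSEC or day 1 HSC. Zfp36 was high in both Kupffer cells and hepatocytes, and Dusp5 was lowest in Kupffer cells. Each line gives the 140 bases before the start site of the RefSeq gene model in GRCm38.p6, 5′ to 3′ on the gene's strand. Capitals mark the TGACG core of the cAMP response element (or its complement CGTCA), the EGR site (GCGTGGGCG or GCGGGGGCG, or a complement) and the CArG box bound by serum response factor. The stretches lie at chr12:85473750-85473889 on the plus strand (Fos), chr7:19310046-19310185 on the minus strand (Fosb), chr15:101266706-101266845 on the plus strand (Nr4a1), chr7:28379229-28379368 on the minus strand (Zfp36) and chr19:53529005-53529144 on the plus strand (Dusp5).
Fos: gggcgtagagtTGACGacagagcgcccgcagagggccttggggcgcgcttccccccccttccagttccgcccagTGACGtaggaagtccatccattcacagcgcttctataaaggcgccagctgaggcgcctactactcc
Fosb: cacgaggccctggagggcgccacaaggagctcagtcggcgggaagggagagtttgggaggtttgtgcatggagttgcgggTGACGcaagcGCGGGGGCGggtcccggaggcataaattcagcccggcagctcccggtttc
Nr4a1: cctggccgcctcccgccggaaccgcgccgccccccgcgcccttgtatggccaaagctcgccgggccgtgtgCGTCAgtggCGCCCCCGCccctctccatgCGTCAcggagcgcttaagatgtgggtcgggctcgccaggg
Zfp36: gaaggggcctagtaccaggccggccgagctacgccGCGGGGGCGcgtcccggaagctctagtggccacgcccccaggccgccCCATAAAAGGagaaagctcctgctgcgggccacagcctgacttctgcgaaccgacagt
Dusp5: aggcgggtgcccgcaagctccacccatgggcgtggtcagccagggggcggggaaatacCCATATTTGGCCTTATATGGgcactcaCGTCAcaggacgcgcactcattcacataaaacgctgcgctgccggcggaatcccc

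Counted back from the start site, the TGACG cores of Fos begin at -129 and -66, that of Fosb at -60, those of Nr4a1 in the stretch at -69 and -40, and that of Dusp5 at -55. The EGR sites begin at -50 in Fosb, -60 in Nr4a1 and -105 in Zfp36. The CArG boxes begin at -58 in Zfp36 and at -82 and -72, side by side, in Dusp5. Windows of 300 bases (250 before and 50 after the start) were found for 29 members and searched on both strands. TGACG was present for 16 of the 29, against 23.0% of the 27025 genes with a window. It was present for 6 of the 8 such members that were higher in Kupffer cells than in each other population, and for 10 of the other 21. Dusp2 is among these 6, and its direction was set by the filter on low values, as given below. The EGR site was present for 7 members (Fosb, Fosl2, Nr4a1, Klf2, Klf4, Dusp2 and Zfp36) against 3.93% of genes, and the CArG box for 3 (Egr2, Dusp5 and Zfp36) against 1.81%. The full element TGACGTCA, which contains the core, was present for Dusp1 and Btg2, against 2.03% of genes. The AP-1 site TGAGTCA and the heat shock element GAANNTTCNNGAA were found in no window of the 29, against 5.95% and 0.662% of genes. A match describes letters in this window and is not a binding site.

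**Figure D1:**
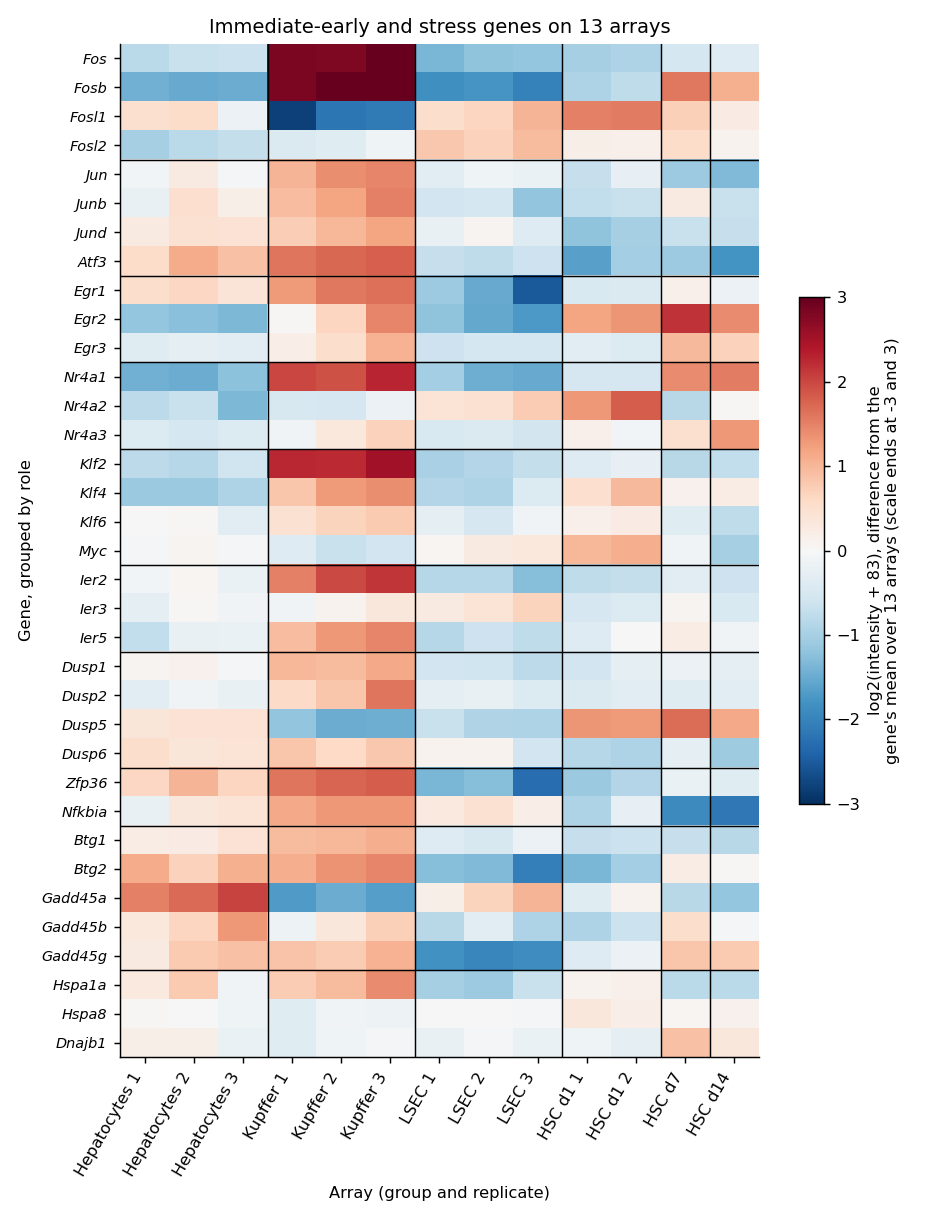
Colour shows log2(intensity + 83) of each of the 35 genes (rows, grouped by role) on each of the 13 arrays (columns) as the difference from the gene's own mean over the arrays. The 3 Kupffer arrays are red for most genes and blue for Fosl1, Dusp5 and Gadd45a, and the day 7 and day 14 HSC arrays share the red of Fosb, Nr4a1, Egr2 and Egr3.

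Kupffer cells held the highest mean of the 4 populations (day 1 HSC included) for 24 of the 35 members, against 25.4% of all genes tested. Every Kupffer array lay above the other 8 arrays for 19 members, a pattern that 17.8% of all genes showed. Nr4a3 and Dusp2 are counted in the 24, and Dusp2 in the 19. Both passed the filter on low values, described below, through Kupffer arrays alone, so their direction was set by the filter. LSEC held the lowest mean for 16 members, against 17.6% of all genes, and every LSEC array lay below the other 8 arrays for 8 members (Fos, Fosb, Egr1, Egr3, Ier2, Zfp36, Gadd45g and Hspa1a), against 6.61%. Intensities of different genes are not compared here, since probe sets differ in their response.

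Differences were tested with limma on log2(intensity + 83) and called where the adjusted p was below 0.05 and the difference was at least 1, that is, at least 2-fold on this scale, which understates folds of dim genes. Against hepatocytes, 12 members were called higher in Kupffer cells and 3 lower, where 13.7% and 12.0% of all genes were called. The median difference of the members was 0.74, against -0.02 over all genes. LSEC had 22 members lower than Kupffer cells and 3 higher (9.54% and 10.3% of genes), with a median of -1.35 against 0.05. Day 1 HSC had 20 lower than Kupffer cells and 5 higher (11.7% and 12.9%), with a median of -1.39 against 0.02. These 3 comparisons share the Kupffer arrays. Kupffer cells were called higher than each of the other 3 populations for 9 members (Fos, Fosb, Jun, Junb, Nr4a1, Klf2, Ier2, Ier5 and Dusp2), against 6.53% of genes, and lower than each for Fosl1 and Gadd45a, against 2.28%. Dusp2 is counted in the 9 and in each of the 3 comparisons. It passed the filter on low values, described below, through Kupffer arrays alone, so its direction was set by the filter.

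The other 3 comparisons did not involve Kupffer cells. LSEC had 9 members lower than hepatocytes and 2 higher (10.0% and 12.5% of genes), with a median of -0.35 against 0.10. Day 1 HSC had 7 lower than hepatocytes and 6 higher (10.1% and 12.3%), with a median of -0.25 against 0.08. Day 1 HSC had 8 members higher than LSEC and 0 lower (5.60% and 5.24%), and the median difference was 0.30 against -0.03. That count became 6 higher and 2 lower without LSEC replicate 3 or without HSC replicate 2, and 8 and 2 with a pseudocount of 16. LSEC were called lower than each other population for Egr1, Gadd45g and Hspa1a, a result found for 0.406% of genes. Against day 1 HSC, the Egr1 call ended without LSEC replicate 3 (HSC higher by 0.84). The Hspa1a call there ended without LSEC replicate 2 (0.96). All 35 members passed the filter on low values. Nr4a3 and Dusp2 passed it among the 4 populations through Kupffer arrays alone, so their differences there had to favour Kupffer cells. All LSEC arrays were under the pooled median for Fos, Ier2 and Gadd45g, and all Kupffer arrays for Gadd45a, so the size of their differences depends on dim values.

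**Figure D2:**
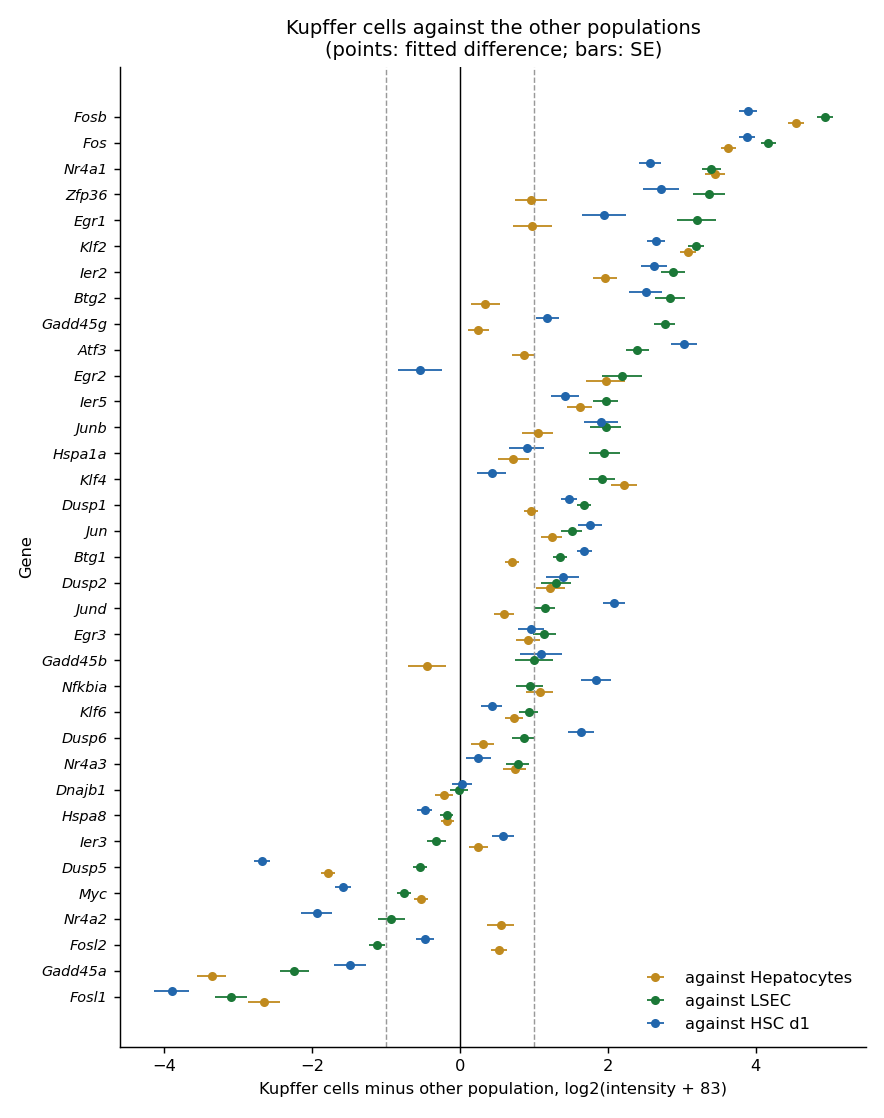
Points are fitted differences of Kupffer cells minus hepatocytes (ochre), LSEC (green) or day 1 HSC (blue) in log2(intensity + 83), with bars of 1 SE, for all 35 genes; dashed lines mark -1 and 1. Fosb, Fos, Nr4a1, Klf2 and Ier2 lie beyond 1 in all 3 comparisons, while Fosl1 and Gadd45a lie beyond -1 in all 3.

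The Fos subunits, which pair with Jun proteins to form AP-1, split into opposite patterns. Fos, the founding member of the class, gave 4496, 4459 and 5543 on the Kupffer arrays. The hepatocyte arrays gave 286.8, 323.3 and 331.6, the LSEC arrays 166.1, 196.7 and 207.2, and the day 1 HSC arrays 241.1 and 258.8. No other array came near the Kupffer values. The difference was 3.63 ± 0.0992 (SE) against hepatocytes (adjusted p = 7.9e-12). LSEC minus Kupffer cells was -4.17 and day 1 HSC minus Kupffer cells -3.88. Fosb, its close paralog, gave 8780, 11185 and 11345 in Kupffer cells, 356.2 to 379.4 in hepatocytes, 225.9 to 286.5 in LSEC, and 583.3 and 663.1 in day 1 HSC. LSEC minus Kupffer cells was -4.93 ± 0.108 for Fosb (adjusted p = 2.0e-12), the widest difference of the 35 members in any comparison of populations. The Fosb excess of day 1 HSC over LSEC (1.04) was not called without LSEC replicate 3 (0.97) or HSC replicate 2 (0.96).

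Fosl1 (FRA-1), a Fos protein that lacks the strong activation domain of Fos, ran the other way. It gave 144.5, 266.0 and 278.7 in Kupffer cells, 1314 to 2245 in hepatocytes, 2190 to 3130 in LSEC, and 4445 and 4564 in day 1 HSC. Kupffer cells lay below all 8 other arrays, by -2.65 ± 0.213 against hepatocytes (adjusted p = 2.0e-07). Fosl2 (FRA-2) was highest in LSEC, at 2725, 2518 and 3035, above the 1713 and 1751 of day 1 HSC, the 1105 to 1405 of Kupffer cells and the 727.4 to 897.6 of hepatocytes. LSEC exceeded hepatocytes by 1.65 and Kupffer cells by 1.12 for Fosl2, and both were called. The call for Fosl2 between day 1 HSC and hepatocytes (1.01) ended without hepatocyte replicate 1 (0.93), without HSC replicate 1 (0.99) and after quantile normalization (0.89).

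The Jun subunits were highest in Kupffer cells with smaller differences. Jun gave 6467, 8406 and 8811 in Kupffer cells, 2993 to 3821 in hepatocytes, 2493 to 2874 in LSEC, and 1929 and 2641 in day 1 HSC. The Kupffer excess over hepatocytes was 1.24 ± 0.144 (adjusted p = 6.9e-06), and hepatocytes, LSEC and day 1 HSC did not differ by 1 or more among themselves. Junb, a Jun protein that can oppose Jun, averaged 3688 ± 773 in Kupffer cells (SD, n = 3), 885 ± 225 in LSEC (n = 3) and 1745 ± 441 in hepatocytes (n = 3). Its difference of 1.05 from hepatocytes was no longer called without hepatocyte replicate 1 (0.87) or Kupffer replicate 3 (0.90). Jund, the most constitutively expressed Jun, was higher in Kupffer cells than in LSEC and day 1 HSC (LSEC lower by -1.15, HSC by -2.08), while the 0.59 against hepatocytes was under the fold needed.

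Atf3, a stress-induced repressor of the ATF/CREB family, was high in both Kupffer cells and hepatocytes. It gave 8305, 8968 and 9413 in Kupffer cells and 3971, 5837 and 4948 in hepatocytes. The LSEC arrays gave 1550 to 1701 and the day 1 HSC arrays 804.7 and 1270. The Kupffer arrays lay above all hepatocyte arrays, but the 0.86 ± 0.155 between them did not reach a difference of 1, and hepatocytes exceeded LSEC (LSEC minus hepatocytes -1.54) and day 1 HSC (-2.17), both called. After quantile normalization, Kupffer cells exceeded hepatocytes by 1.01, which was called.

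Among the Egr factors, zinc finger proteins induced through the serum response factor, Egr1 gave 5298, 6605 and 6925 in Kupffer cells and 3119, 3384 and 2855 in hepatocytes. The 3 LSEC arrays spread widely, at 967.3, 706.6 and 305.0, and the day 1 HSC arrays gave 1535 and 1567. LSEC lay below every other array. The LSEC difference was -2.22 ± 0.268 from hepatocytes (adjusted p = 1.1e-05) and -3.20 from Kupffer cells. The 0.98 between Kupffer cells and hepatocytes was not called. It was called after quantile normalization (1.05) and without hepatocyte replicate 2 (1.04) or Kupffer replicate 1 (1.1). The excess of day 1 HSC over LSEC, 1.25, fell to 0.84 without LSEC replicate 3 and was then not called.

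Egr2, an Egr factor also tied to macrophages, had a different order from Egr1. It gave 1412 and 1577 in day 1 HSC and 592.7, 952.0 and 1742 in Kupffer cells, and those ranges overlap. Hepatocytes gave 175.7 to 212.5 and LSEC 117.5 to 206.2, all below the pooled median. Day 1 HSC exceeded LSEC by 2.73 ± 0.299 (adjusted p = 1.3e-05). Egr3, another target of the same signals, gave 543.6, 700.9 and 1042 in Kupffer cells and 274.0 to 362.4 on the other 8 arrays. Among the populations it was called only between LSEC and Kupffer cells (-1.14), and that call ended without Kupffer replicate 3 (-0.91).

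The Nr4a receptors are ligand-independent nuclear receptors induced by calcium and cAMP signals. Nr4a1 (NUR77), which also marks antigen-receptor signalling in lymphocytes, gave 5211, 4853 and 6259 in Kupffer cells. The hepatocyte arrays gave 386.2 to 473.9, the LSEC arrays 373.5 to 562.9, and the day 1 HSC arrays 843.8 and 834.4. The Kupffer excess was 3.45 ± 0.134 over hepatocytes (adjusted p = 1.8e-10). Nr4a2 (NURR1) was instead highest in day 1 HSC, at 1626 and 2366, above the 838.2 to 1106 of LSEC, the 411.0 to 534.5 of Kupffer cells and the 192.4 to 354.5 of hepatocytes. It was the single member called higher in day 1 HSC than in each other population, a result found for 2.59% of genes, and the call against LSEC (1.01) ended without HSC replicate 2 (0.75), LSEC replicate 1 (0.94) or LSEC replicate 2 (0.97). Nr4a3 (NOR1) was dim, at 154.3 to 326.6 in Kupffer cells and 91.43 to 201.8 on the other 8 arrays, and no population difference was called.

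**Figure D3:**
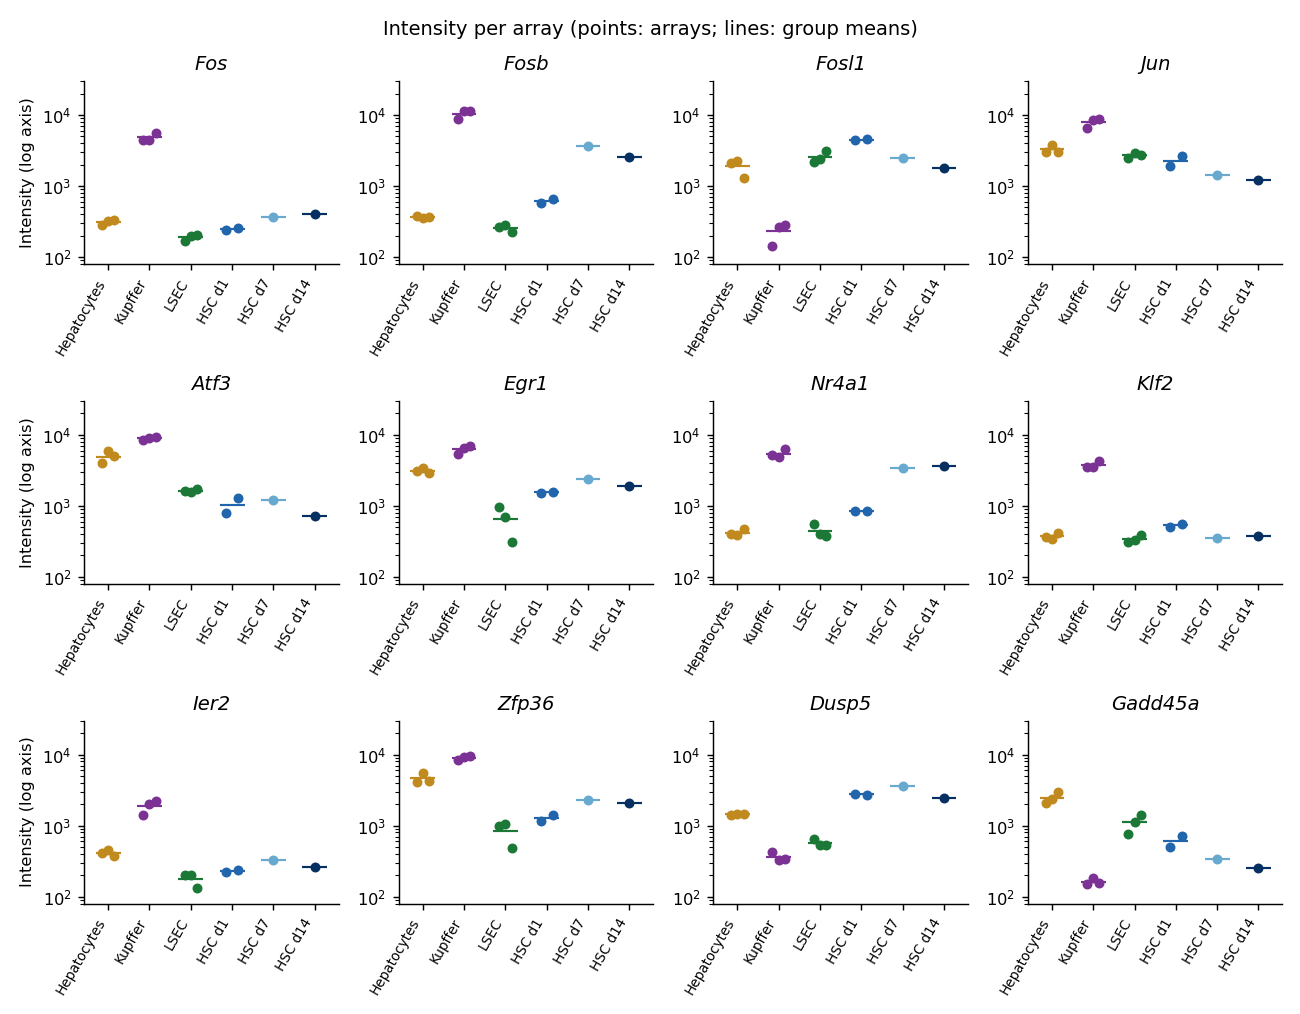
Points are the intensity on each array (log axis) of 12 genes in hepatocytes, Kupffer cells, LSEC and HSC after 1, 7 and 14 days of culture; short lines are group means. Kupffer cells stand above all other populations for Fos, Fosb, Nr4a1, Klf2 and Ier2 and below them for Fosl1 and Gadd45a, and LSEC stand lowest for Egr1.

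Klf2, a Kruppel-like factor known for shear-stress signalling in endothelium and for restraint of macrophage activation, gave 3566, 3495 and 4277 in Kupffer cells. LSEC, although endothelial, gave 306.3, 329.1 and 385.2, no higher than the 338.9 to 419.7 of hepatocytes, and day 1 HSC gave 500.8 and 561.3. LSEC minus Kupffer cells was -3.19 ± 0.106 (adjusted p = 6.1e-11), and LSEC minus hepatocytes was -0.11 ± 0.106. Klf4, a related factor, averaged 1847 ± 373 (SD, n = 3) in Kupffer cells and gave 1107 and 1585 in day 1 HSC, against 307.6 to 361.6 in hepatocytes and 359.6 to 549.2 in LSEC. Kupffer cells exceeded hepatocytes by 2.22 and day 1 HSC exceeded LSEC by 1.48. Klf6, induced in HSC and endothelium after injury, stayed within 2313 to 5720 over the 11 arrays with no call.

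Myc, a driver of growth and ribosome synthesis, was highest in day 1 HSC at 7877 and 8327. The LSEC arrays gave 4086 to 4895, the hepatocyte arrays 3755 to 4122 and the Kupffer arrays 2983, 2439 and 2572, the lowest of all. Day 1 HSC exceeded Kupffer cells by 1.58 ± 0.107 (adjusted p = 5.8e-08) and hepatocytes by 1.05. The 0.82 over LSEC was not called, and quantile normalization took the difference from hepatocytes to 0.96.

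Of the Ier genes, named for their induction, Ier2 gave 1396, 1986 and 2235 in Kupffer cells and 369.9 to 455.9 in hepatocytes. LSEC gave 202.7, 202.9 and 132.8 and day 1 HSC 222.4 and 236.2, all but the last under the pooled median. The Kupffer excess over hepatocytes was 1.96 ± 0.157 (adjusted p = 2.0e-07). Ier5, an activator of the heat shock factor HSF1, averaged 1591 ± 310 (SD, n = 3) in Kupffer cells against 305.8 to 622.9 on the other 8 arrays, and exceeded hepatocytes by 1.62. Ier3, a modulator of apoptosis, had no call in any comparison and was highest in LSEC at 739.8 to 1004.

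The Dusp genes encode phosphatases that switch MAP kinases off, and their orders over the populations differed. Dusp1 (MKP-1), which acts on p38 and JNK in the nucleus, gave 16196, 15829 and 17830 in Kupffer cells, 7938 to 8885 in hepatocytes, 4682 to 5445 in LSEC, and 5384 and 6576 in day 1 HSC. LSEC minus Kupffer cells was -1.68 ± 0.0967 (adjusted p = 1.2e-08), and the 0.96 over hepatocytes was just under the fold needed. After quantile normalization the Kupffer excess over hepatocytes was 1.1 and was called. Dusp2, an inducible phosphatase of immune cells, gave 406.3, 501.3 and 921.7 in Kupffer cells and 159.2 to 222.4 on the other 8 arrays, all under the pooled median. Its calls against hepatocytes (1.22) and LSEC (-1.30) both ended without Kupffer replicate 3 (0.92 and, just short of 1 before rounding, -1.0). As said above, the direction of its Kupffer differences was set by the filter.

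Dusp5, a nuclear phosphatase that acts on ERK and is itself induced by ERK, had an almost opposite order. It gave 2828 and 2724 in day 1 HSC, 1417, 1480 and 1480 in hepatocytes, 526.5 to 642.8 in LSEC, and 424.2, 331.6 and 339.8 in Kupffer cells. No neighbouring populations in this order overlapped. Day 1 HSC exceeded Kupffer cells by 2.68 ± 0.107 (adjusted p = 4.3e-10) and LSEC by 2.13. Dusp6, a cytoplasmic phosphatase that also acts on ERK, gave 3359 to 3969 in Kupffer cells, 2849 to 3187 in hepatocytes, 1447 to 2385 in LSEC, and 1171 and 1119 in day 1 HSC, which were lower than Kupffer cells by -1.64 and than hepatocytes by -1.32.

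The feedback genes Zfp36 and Nfkbia both peaked in Kupffer cells. Zfp36 (tristetraprolin), which speeds the decay of cytokine mRNAs, gave 8295, 9196 and 9548 in Kupffer cells and 4157, 5487 and 4218 in hepatocytes. LSEC gave 986.8, 1043 and 480.6 and day 1 HSC 1180 and 1417. LSEC were lower than Kupffer cells by -3.37 ± 0.217 (adjusted p = 3.6e-08) and than hepatocytes by -2.41, and the 0.96 between Kupffer cells and hepatocytes was not called. That difference was called after quantile normalization (1.11) and without hepatocyte replicate 2 (1.09) or Kupffer replicate 1 (1.02). Nfkbia, the inhibitor that holds NF-kB in the cytoplasm and is an NF-kB target, gave 8192, 9214 and 9248 in Kupffer cells, 3130 to 4903 in hepatocytes, 4202 to 5060 in LSEC, and 1906 and 3071 in day 1 HSC. Its 1.08 over hepatocytes ended without hepatocyte replicate 1 (0.88).

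The 5 growth arrest genes differed in where they were highest. Gadd45a, a p53-induced stress sensor, gave 2050, 2367 and 2986 in hepatocytes, 773.5 to 1430 in LSEC, 504.0 and 720.4 in day 1 HSC, and 148.8, 183.1 and 155.4 in Kupffer cells. Kupffer cells were lower than hepatocytes by -3.36 ± 0.195 (adjusted p = 8.3e-09), on values under the pooled median. No other member was called above all 3 other populations in hepatocytes, a result found for 6.8% of genes, and the call against LSEC (-1.12) ended without LSEC replicate 1 (-0.90) or hepatocyte replicate 3 (-0.98). Gadd45g, its paralog, was set apart by LSEC, at 201.9, 174.6 and 193.9 against 679.3 to 1996 on the other arrays, and LSEC minus hepatocytes was -2.52 ± 0.142 (adjusted p = 9.1e-09). Gadd45b, the third paralog and an NF-kB target, averaged 2987 ± 1093 (SD, n = 3) in hepatocytes. It averaged 2143 ± 644 (SD, n = 3) in Kupffer cells, and both lay above the 842.9 to 1298 of LSEC and the 836.3 and 1030 of day 1 HSC. The Gadd45b call between LSEC and Kupffer cells (-1.0) ended without Kupffer replicate 2 or 3 or LSEC replicate 1 or 3, with values from -0.98 to -0.80. That between day 1 HSC and Kupffer cells (-1.10) ended without Kupffer replicate 3 (-0.89) or HSC replicate 1 (-0.96).

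Btg2, an antiproliferative p53 target, gave 5695, 4174 and 5513 in hepatocytes and 5545, 6714 and 7228 in Kupffer cells, ranges that overlap. LSEC gave 1018, 982.8 and 560.8 and day 1 HSC 937.2 and 1216. LSEC were lower than hepatocytes by -2.50 ± 0.198 (adjusted p = 2.3e-07). Btg1, its paralog, gave 6810 to 7523 in Kupffer cells, 4105 to 4721 in hepatocytes, 2490 to 3101 in LSEC, and 2128 and 2196 in day 1 HSC, so no neighbouring populations overlapped. The differences from Kupffer cells were -1.35 for LSEC and -1.68 for day 1 HSC.

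The heat shock genes differed from one another. Hspa1a, the inducible HSP70, gave 2048, 2338 and 3283 in Kupffer cells, 1465, 2087 and 1085 in hepatocytes, 1286 and 1317 in day 1 HSC, and 552.7, 514.7 and 714.5 in LSEC. LSEC were lower than Kupffer cells by -1.95 ± 0.212 (adjusted p = 4.9e-06) and than hepatocytes by -1.23. The excess of day 1 HSC over LSEC (1.04) ended without LSEC replicate 2 (0.96). Hspa1a has the near-identical copy Hspa1b, so its signal is uncertain between them; a probe set listing both genes gave 690.8 to 924.9 in LSEC, 1883.6 to 2816.6 in Kupffer cells, and 2296.6, 3087.7 and 1721.7 in hepatocytes. LSEC were lowest on it too, but hepatocytes and Kupffer cells overlapped and their order of means was not that of Hspa1a. Hspa8, the constitutive HSC70, stayed between 8926 and 14624 over the 11 arrays, and Dnajb1, an HSP40 partner of HSP70, between 416.1 and 647.6, and neither had a call in any comparison. Hspa8 had 3 probe sets that name it alone, and the other 34 members had 1.

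The 3 Kupffer arrays differed among themselves in these genes. Kupffer replicate 3 was the highest of the 3 for 30 of the 35 members, which held for 26.9% of all genes, and replicate 1 was the lowest for 26, against 24.5% of all genes. Egr2 was 592.7, 952.0 and 1742 in replicates 1, 2 and 3, and Dusp2 was 406.3, 501.3 and 921.7 in the same replicates. The sum of the 10 Kupffer markers was 79790, 81807 and 78004 in replicates 1, 2 and 3. The sum of hepatocyte markers was 5852, 2437 and 4301, of LSEC markers 15093, 13982 and 12831, and of stellate markers 6546, 4425 and 5116. The part of these in the order of the replicates was not tested. LSEC replicate 3 was the lowest of its group for 17 members, against 39.4% of all genes, and the highest for 13, against 31.9%. Neither count is far from its share. The 17 included Egr1, Junb, Zfp36, Btg2 and Ier2, and the 13 included Fos, Fosl1, Atf3, Klf2 and Hspa1a. The sum of LSEC markers on that array was 52148, against 71175 and 67715 on the other LSEC arrays. Hepatocyte replicate 1 was lowest for 19 members, against 27.8% of all genes. The labels do not say that replicates were separate animals, so p-values measure the spread between these arrays, which may be partly technical.

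Other genes of the response were counted on lists written with earlier results of these data known. Over all genes, 13.7% were called higher and 12.0% lower in Kupffer cells than in hepatocytes, 10.3% and 9.54% in LSEC than in Kupffer cells, and 12.9% and 11.7% in day 1 HSC than in Kupffer cells. Of 13 early response chemokines and cytokines, 10 were called higher in Kupffer cells than in hepatocytes and 0 lower, led by Il1a (5.63), Ccl3 (5.16) and Il1b (4.19), and the median of the list was 3.46. In LSEC, 9 of the 13 were lower than in Kupffer cells, led by Ccl3 (-4.36), Il1b (-4.29) and Il10 (-3.83), while the monocyte chemokines Ccl7 (2.02) and Ccl2 (1.87) were higher. Day 1 HSC gave the same counts against Kupffer cells, 9 lower and 2 higher. Of 11 NF-kB subunits and inhibitors, 4 were higher in Kupffer cells than in hepatocytes, led by Nfkbie (2.80), Rel (2.66) and Nfkbid (2.50). Ikbkg (-1.17) was lower. Means were under the pooled median for Il10 in LSEC and day 1 HSC and for Il1b in hepatocytes and LSEC. The same held for Nfkbid in hepatocytes and day 1 HSC. Which arrays carried each list gene through the filter on low values was not tested. Where Kupffer arrays alone did so, the direction of a difference from Kupffer cells was set by the filter.

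The other early response genes moved both ways. Of 37 tested, 10 were higher in Kupffer cells than in hepatocytes, led by Rgs1 (4.63), Rhob (2.76) and Irf1 (2.51), and 8 were lower, led by Phlda1 (-3.82), Errfi1 (-3.55) and Nfil3 (-2.41), with a list median of 0.01. Day 1 HSC had 6 higher than Kupffer cells, among them the YAP and serum response targets Ccn2 (5.63) and Ccn1 (4.53) and the prostaglandin synthase Ptgs2 (4.73), and 15 lower, led by Rgs2 (-4.15), Irf1 (-3.52) and Rgs1 (-2.85). Of 24 serum response and MAP kinase genes, 6 were higher in Kupffer cells than in hepatocytes, led by Rps6ka5 (1.54), Elk3 (1.52) and Spred1 (1.35), and Crem (-1.36) and Map2k4 (-1.01) were lower.

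The remaining lists are read against the same shares, 13.7% higher and 12.0% lower between Kupffer cells and hepatocytes. Of 27 further heat shock factors and chaperones, 1 (Dnajb4, 1.03) was higher in Kupffer cells than in hepatocytes and 7 were lower, led by the small heat shock proteins Hspb8 (-3.99) and Hspb1 (-3.66) and the mitochondrial chaperonin Hspd1 (-1.84). Against Kupffer cells, day 1 HSC had 11 higher, led by Cryab (3.92), Hspb8 (3.32) and Hspb1 (2.52), and 0 lower (12.9% and 11.7% of all genes). LSEC had 7 higher than Kupffer cells, led by Hspb1 (1.82), Hsph1 (1.67) and Stip1 (1.66), and 1 lower (Dnajb4, -1.39). The shares of all genes there were 10.3% and 9.54%. Of 9 other dual-specificity phosphatases, 2 were higher and 4 lower in Kupffer cells than in hepatocytes. Of 14 other AP-1 family factors, 4 were higher and 2 lower. Of 10 genes of growth arrest and the p53 response, 0 were higher and 3 lower, led by Trp53inp1 (-2.17), Ddit4 (-1.97) and Tob1 (-1.47). Of 8 other Kruppel-like factors, 1 was higher and 2 lower. These lists are short, and their counts are given as a description.

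The HSC culture series asked how the members stood after longer culture. The day 7 and day 14 arrays were compared as 1 group with the 2 day 1 arrays, and the spread came from all 13 arrays, so these p-values do not measure the spread between HSC cultures alone. Of the 35 members, 6 were called higher after 7 and 14 days (Fosb, Nr4a1, Btg2, Egr3, Gadd45g and Gadd45b) and 4 lower (Nr4a2, Myc, Nfkbia and Fosl1), where 5.52% and 4.27% of all genes were called. The median difference of the members was 0.22, against -0.04 over all genes. Both later arrays lay above both day 1 arrays for 15 members, against 31.7% of all genes, and below them for 11, against 41.3%, so these arrangements were common.

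Fosb gave 583.3 and 663.1 on day 1, 3669 on day 7 and 2544 on day 14, a difference of 2.15 ± 0.164 (adjusted p = 8.4e-07). Nr4a1 gave 843.8 and 834.4 on day 1, then 3442 and 3684, a difference of 1.98 ± 0.161 (adjusted p = 1.5e-06). At both later times both genes stayed below the Kupffer arrays, which were at 8780 or more for Fosb and 4853 or more for Nr4a1. Fos, in contrast, gave 241.1 and 258.8 on day 1 and 370.0 and 409.8 later, and its 0.51 was not called. Klf2 gave 500.8 and 561.3 on day 1 and 349.2 and 376.5 later, also without a call.

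Btg2 gave 937.2 and 1216 on day 1, then 3006 and 2619 (1.33 ± 0.240, adjusted p = 7.0e-04). Egr3 gave 352.7 and 325.7, then 991.7 and 806.4 (1.21). Gadd45g gave 679.3 and 801.0, then 1693 and 1637 (1.09). The Gadd45g call ended without HSC day 1 replicate 1 (0.98), so it stood close to the fold needed. Gadd45b gave 836.3 and 1030, then 2429 and 1621 (1.03), and its call ended without that same day 1 array (0.89, adjusted p = 0.11) and without the day 7 array (0.75, adjusted p = 0.15). With the pooled median as pseudocount, the calls for Egr3 (0.99), Gadd45g (0.97) and Gadd45b (0.94) ended. For all 6 genes called higher, both later arrays lay above both day 1 arrays.

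Nr4a2 fell from 1626 and 2366 on day 1 to 305.3 on day 7 and 627.7 on day 14, a difference of -1.96 ± 0.281 (adjusted p = 1.2e-04), opposite in direction to Nr4a1. Myc fell from 7877 and 8327 to 3621 and 1914 (-1.59 ± 0.212, adjusted p = 7.2e-05). Nfkbia fell from 1906 and 3071 to 926.0 and 772.2 (-1.43 ± 0.222, adjusted p = 2.3e-04). Fosl1 fell from 4445 and 4564 to 2489 and 1797 (-1.06), and its call ended without the day 14 array (-0.83, adjusted p = 0.060). Hepatocyte and LSEC marker sums were lower and the mesothelial sum was higher at the later times, as given above. Of the stellate markers, Reln went from 4331 and 4597 on day 1 to 2270 on day 7 and 276.6 on day 14, and Rgs5 from 1101 and 1144 to 286.9 and 127.7. For Nr4a2, Myc and Fosl1 the day 1 values lay above every hepatocyte, Kupffer and LSEC array, and for Nfkbia they lay below every one. The part of other cells and of these marker changes in the culture differences of the members was not tested.

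**Figure D4:**
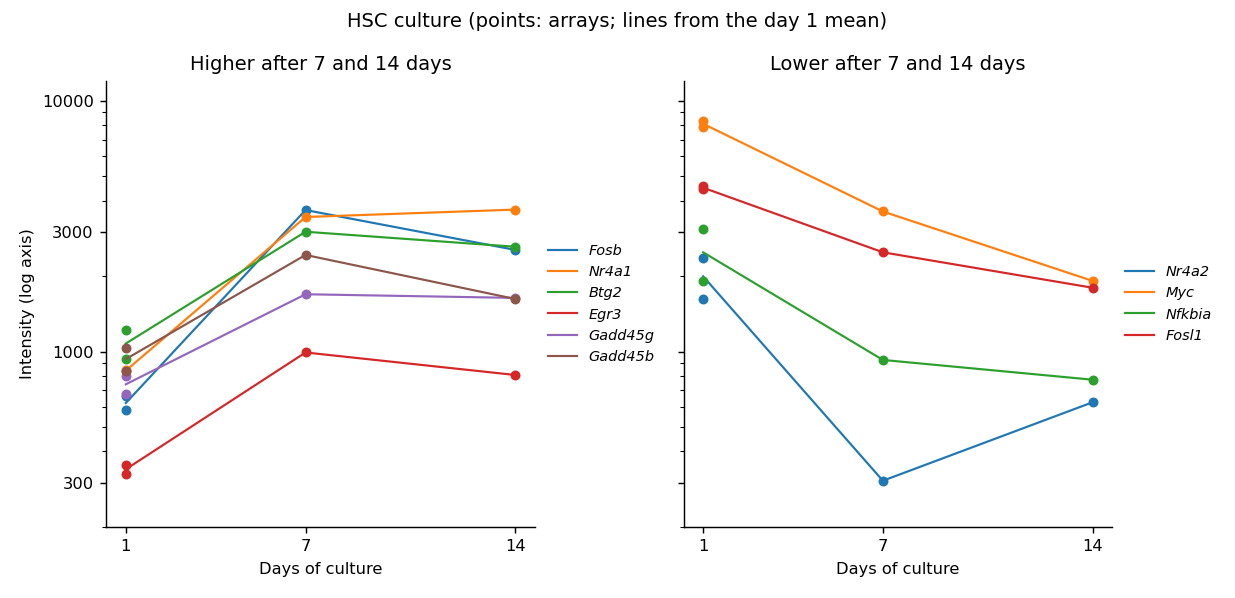
Points are the intensity (log axis) on each HSC array after 1, 7 and 14 days of culture, and lines run from the day 1 mean, for the 6 genes called higher (left) and the 4 called lower (right) after longer culture. Fosb and Nr4a1 rise from 843.8 or less to 2544 or more at both later times, and Nr4a2 falls to 305.3 on day 7 and stands at 627.7 on day 14.

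Among the members with no call in culture, Jun fell short at -0.74 and Klf6 at -0.77, Hspa1a at -0.93 and Gadd45a at -0.86, while Dnajb1 stood at 0.81, Nr4a3 at 0.85 and Zfp36 at 0.73. The probe set listing both Hspa1a and Hspa1b changed less, from 1422.1 and 1723.7 on day 1 to 1407.7 and 1355.8. Dusp5 kept its high level, at 2828 and 2724 on day 1, 3630 on day 7 and 2478 on day 14. Egr2 gave 1412 and 1577, then 2887 and 1685. Day 7 and day 14 had 1 array each, so their difference has no replicate check. Day 14 was below day 7 for 26 of the 35 members, against 59.1% of all genes, with a median difference of -0.27 against -0.05, and 0 members differed by 1 or more, against 0.986% of genes lower by that much and 0.574% higher. The widest were Junb (-0.94) and Myc (-0.89) downwards and Nr4a2 (0.87) and Nr4a3 (0.81) upwards.

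The other lists in culture stand against 5.52% of all genes higher and 4.27% lower. Of the 13 chemokines and cytokines, Il6 (2.31) and Lif (1.47) were higher after 7 and 14 days, and 5 were lower, led by Cxcl2 (-3.98), Cxcl1 (-1.82) and Il1a (-1.45). Of 38 other early response genes, 5 were higher, led by the growth factor Hbegf (2.66), Pim1 (1.37) and Bhlhe40 (1.25), and 3 were lower, namely Zfp36l1 (-1.47), Rgs1 (-1.28) and Zfp36l2 (-1.09). Of 28 heat shock factors and chaperones, 4 were higher, led by the muscle-type small heat shock proteins Hspb6 (2.33) and Hspb7 (1.77) and by Hspb1 (1.82), and 0 were lower. None of the 24 serum response and MAP kinase genes was called.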

How the data were processed

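Probe-set intensities of 13 arrays were used as the authors deposited them, on a linear scale. Per the submitters' processing notes, Affymetrix Expression Console and MAS5 5.0 were used, with no role stated. Not given in the sources used here are background correction, scaling between arrays and build. The medians of the deposited intensity per array lay between 216.5 and 232.9, and the number of arrays limits the precision. Gene names came from the platform annotation: 21181 of 25194 probe sets had 1 symbol, 1379 several and 2634 none, and the last 2 kinds were left out of the tests.

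From the deposited intensity, log2(intensity + 83) was computed, 83 being the pooled 20th percentile. Genes were kept if above the pooled median (224.5) on at least 2 arrays of the fit. R 4.3.3 and limma 3.58.1 (lmFit and eBayes) were used with Benjamini-Hochberg adjustment over all genes: 12081 genes on 11 arrays of 4 populations, and 12368 genes on 13 arrays for culture. Calls needed an adjusted p below 0.05 and a difference of at least 1. The fits were tested on simulated data. Promoter letters came from RefSeq windows.

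The 35 members and all lists were chosen with earlier results of these data known. All members are named, and of each list up to 3 called genes in each direction by size. Alternatives were 2 other pseudocounts, quantile normalization, no filter, the mean of probe sets, other sets of arrays, a replicate block, and leaving out each array. Replicate numbers are shared between groups, but were not taken to pair arrays, and the labels do not say whether they do.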

Additional observations from a re-analysis of the deposited data

How the results depend on the processing

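Over the 7 comparisons 107 member calls were made. Of these, 89 held under every alternative run and 18 were lost under at least 1, 16 of them on leaving out an array, and no called difference changed sign. Of the differences not called, 20 changed sign under some alternative, the largest of them 0.28 in size. With the pooled median as pseudocount, 5 members in place of 8 were called between day 1 HSC and LSEC. The same setting gave 7 in place of 10 for culture and 22 in place of 25 for LSEC against Kupffer cells. Against hepatocytes it gave 13 in place of 15 for Kupffer cells and 12 in place of 13 for day 1 HSC. On leaving out 1 array at a time, the count ran from 13 to 18 for Kupffer cells against hepatocytes, 23 to 26 for LSEC and 24 to 27 for day 1 HSC against Kupffer cells, 10 to 12 for LSEC and 12 to 15 for day 1 HSC against hepatocytes, 6 to 8 for day 1 HSC against LSEC, and 9 to 11 for culture. Quantile normalization gave 19 in place of 15 for Kupffer cells against hepatocytes. No filter, and the mean of probe sets, left every count as it was. With the replicate number as a block, the counts were 15, 11, 14, 25, 24 and 8 (against hepatocytes for Kupffer cells, LSEC and day 1 HSC, against Kupffer cells for LSEC and day 1 HSC, and day 1 HSC against LSEC). Same-numbered arrays correlated between -0.11 and 0.11 over 15 pairs in their deviations from group means, with 2 pairs over 0.1, so the numbers were not taken to pair the arrays. With the block, Gadd45b between day 1 HSC and Kupffer cells was -0.97 and not called. For culture no block could be fitted, since the later arrays carry no number. Members under the pooled median in a group (Dusp2 and Nr4a3 in several, Egr2 in hepatocytes and LSEC, Fos, Ier2 and Gadd45g in LSEC, Gadd45a in Kupffer cells) are limited by signal over background.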
